A study of Mus musculus with 24 samples.

Results

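The comparison described here asked which transcripts still responded to a traumatic brain injury (TBI) when the receptor CSF1R was inhibited. The 5 TBI mice that received PLX3397 were compared with the 4 sham mice, 9 of the 24 mice sequenced, and the 5 TBI mice on vehicle served as a reference. Of the 36333 genes listed, 17267 had a mean of at least 0.5 TPM over all 24 libraries and were tested, where TPM is the abundance of a transcript corrected for its length, with all genes of a library adding up to 1000000.

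All mice were males of the C57BL6N strain by their labels, aged 12-16 weeks, with no transgene, and brains were taken at 5 days post injury (dpi). TBI was a controlled cortical impact. PLX3397, a small molecule that inhibits CSF1R and also the receptors KIT and FLT3, was mixed into the chow at 290 mg per kg of food and was eaten from shortly after the impact until 5 dpi. Vehicle mice ate chow without the drug. Of the other mice sequenced, 5 had TBI and Anakinra, a recombinant interleukin-1 receptor antagonist injected under the skin at 100 mg per kg, and 5 had TBI and both Anakinra and PLX3397 chow (PLX3397+Anakinra). Sham mice were anesthetized and had a skin incision but no craniotomy, and they ate vehicle chow, so each had neither the injury nor the drug. The design holds no uninjured mice on PLX3397. A difference between the PLX3397 and sham groups can therefore come from the impact, the craniotomy or the drug, and these cannot be told apart. Each library came from 1 mouse, from sections of the upper quadrant around the lesion, which held cortex, striatum, dorsal hippocampus and thalamus although the labels name cortex.

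CSF1R is the receptor on microglia and other macrophages for the growth factors CSF1 and IL34, and these cells depend on it for survival. After a contusion, microglia and blood-derived phagocytes clear debris, astrocytes become reactive around the lesion, and fibroblasts lay down a collagen-rich scar. Inhibitors of CSF1R deplete microglia.

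In the PLX3397 group 3920 genes were higher and 3881 lower than in sham at an adjusted p below 0.05 (limma), which is 22.7% and 22.5% of the genes tested and 45.2% in all. In vehicle versus sham, given beside it and sharing the 4 sham mice, 26.6% were higher and 27.7% lower, 54.3% in all. The changes were uneven in size. By the criteria used in the study for a differentially expressed gene (DEG, unadjusted p below 0.05, ratio of mean TPM above 2 and difference above 4 TPM), 618 genes (3.58%) were up and 14 (0.0811%) were down. The median log2 fold change, the difference in mean log2(TPM + 1), was 1.55 over the up-regulated DEGs and -0.01 over all genes. These genes were chosen on the same mice, so what follows describes the choice and tests nothing. In 617 of the 618 every PLX3397 mouse was above every sham mouse, and this held for 18.7% of all genes tested. Their median excess over sham was 1.24 in PLX3397 mouse J01 and 1.54, 1.54, 1.73 and 1.80 in mice J12, J19, J20 and J02.

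**Figure D1:**
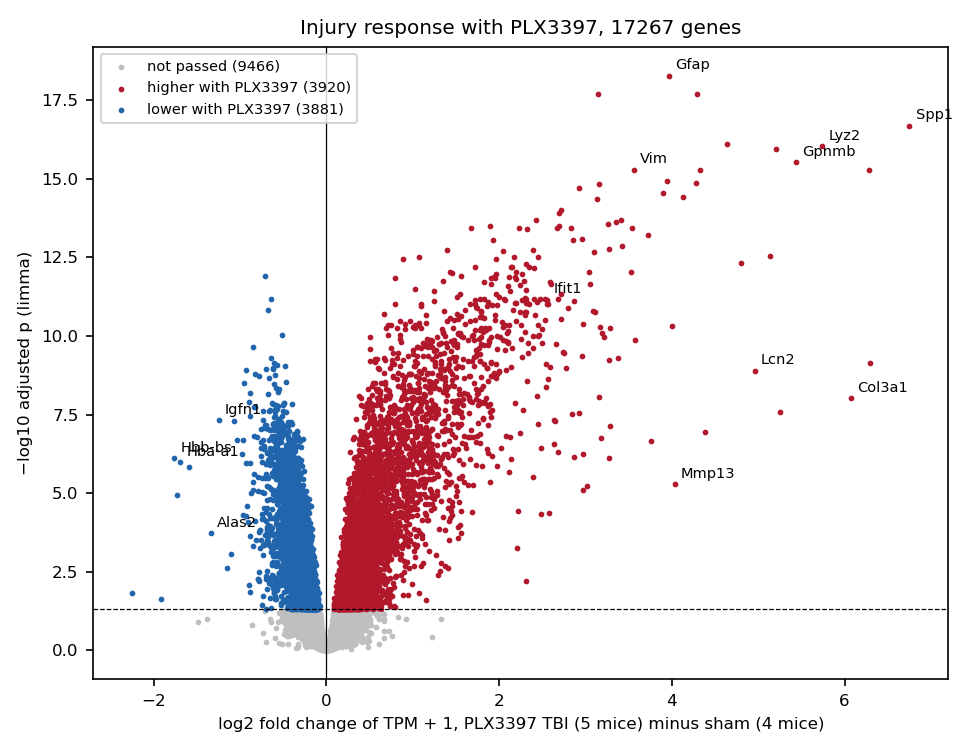
Each point is 1 of 17267 genes, with the log2 fold change of PLX3397 TBI (5 mice) minus sham (4 mice) on the horizontal axis and the negative log10 of limma's adjusted p on the vertical axis; the dashed line is at 0.05. Higher genes (red, 3920) reach a log2 fold change of 6.75 for Spp1, whereas lower genes (blue, 3881) mostly stay within 1 unit of 0, apart from the hemoglobin genes and a few others.

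The libraries differed by small amounts in genes detected and in the share of the most abundant genes, but not by the test in mitochondrial share. Between 22554 and 23041 genes were above 0 in the PLX3397 mice and between 22160 and 22578 in sham (exact two-sided permutation test, p = 0.0317). The 50 most abundant genes held 12.5% to 13.3% of the TPM against 12.0% to 12.2% (exact p = 0.0159, the smallest this design allows), and mitochondrial genes 1.09% to 1.31% against 1.12% to 1.31% (exact p = 0.254). The part of these differences in the results was not tested. Read depth per library is unknown, since TPM hold no counts.

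The 10 largest increases and decreases are given first, among genes that passed the test without overlap between the groups, had at least 4 TPM in the higher group and were not predicted genes. Spp1 (osteopontin, a secreted glycoprotein of activated phagocytes, chr5:104435111-104441053 in GRCm38.p6) was 15.9, 16.8, 19.5 and 18.3 TPM in sham mice J07, J08, J15 and J16 and 1546, 2911, 2082, 1594 and 2144 TPM in PLX3397 mice J01, J02, J12, J19 and J20; values per mouse are given in this order from here on. The groups were far apart (log2 fold change 6.75 ± 0.22 SE, adjusted p = 2.0e-17). The noncoding RNA H19 (log2 fold change 6.29), Cd5l (6.29), a secreted scavenger protein of macrophages, and Col3a1 (6.07), a fibrillar collagen chain, followed. Lyz2 (5.74), Gpnmb (5.44), Col1a1 (5.25), Lgals3 (5.20), Timp1 (5.14) and Lcn2 (4.96) completed the 10 increases. Of these, H19 and Cd5l had sham means of 0.459 and 0.0437 TPM, below the level of 0.5 TPM required for testing. They were tested only because the injured mice were high, so their places describe the choice and test nothing. Within the same limits the 10 largest decreases were those of the globin genes Hbb-bs, Hbb-bt, Hba-a1 and Hba-a2, Alas2, Igfn1, Ntn5, Rspo1, Adam33 and Crybb1, with log2 fold changes from -1.76 to -0.96. Gh (-2.25), whose groups overlapped, lay outside these limits.

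The 32 lists of genes for cell types and pathways are described below, beginning with the drug's own targets. A member whose sham mean was below 0.5 TPM passed the level filter only through the injured mice, so a higher value was fixed by the filter for most such members. Over all genes tested 612 were of this kind, and 368 of them were among the 3920 higher genes. In the lists they are set apart and left out of the counts and medians against sham. Of the 7 drug targets and their ligands, 2 were higher and 4 lower than in sham. Csf1r itself was 62.5, 60.8, 60.5 and 61.2 TPM in sham and 75.4, 120.5, 73.8, 90.5 and 85.2 TPM with PLX3397. All 5 treated mice were above all sham mice (log2 fold change 0.51 ± 0.10, adjusted p = 1.1e-04), yet well below the vehicle mice, which had 226.5 ± 22.9 TPM (SD, n = 5). Csf1, the ligand made by many cells after injury, rose from 16.4 TPM on average to 48.6 TPM (1.51 ± 0.10, adjusted p = 5.9e-12), with 57.1 ± 8.9 TPM in vehicle. Il34, the ligand that neurons make, fell by 0.22 on the log2 scale, from 62.7 to 53.7 TPM (adjusted p = 0.0019). Flt3 was lower in all 5 mice (log2 fold change -0.56 ± 0.09, adjusted p = 1.8e-05). Kit (-0.21, adjusted p = 0.021) and Kitl (-0.22, adjusted p = 0.020) passed the test, but their groups overlapped. The call for Kit was lost without PLX3397 mouse J19 (adjusted p = 0.053) or J20 (0.062), and that for Kitl without PLX3397 mouse J02 (0.056) or sham mouse J15 (0.085) or J16 (0.056). Flt3l was 4.17 TPM in sham and 5.18 TPM with PLX3397 (adjusted p = 0.094, and 0.035 without PLX3397 mouse J20).

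Homeostatic microglial genes split. Of 16 members, 9 were higher, 4 lower and 3 not different by the test, with a median log2 fold change of 0.41 against -0.01 over all genes and 1.79 for the same genes in vehicle versus sham, a comparison that shares the 4 sham mice. P2ry12, the purinergic receptor that marks resting microglia, was 25.9, 29.3, 29.5 and 29.1 TPM in sham and 18.01, 21.2, 12.2, 17.5 and 11.5 TPM with PLX3397. Every treated mouse was below every sham mouse (log2 fold change -0.82 ± 0.15, adjusted p = 7.7e-05), whereas vehicle mice had 54.8 ± 7.0 TPM. Siglech, a microglial surface lectin, (-0.74, adjusted p = 6.8e-05), Slc2a5, a fructose transporter, (-0.96, adjusted p = 2.1e-07) and Selplg (-0.33, adjusted p = 0.0044) were lower too, Selplg with overlap between groups. Tmem119, another marker of resident microglia, was 25.7, 24.7, 25.4 and 23.7 TPM in sham and 24.1, 32.6, 22.9, 21.96 and 24.5 TPM with PLX3397, a difference of 0.01 ± 0.10 (adjusted p = 0.96). These 5 genes lie outside the rule for named genes and were chosen after their values were seen.

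Other members of the same list were higher than in sham. Tyrobp, the signaling adaptor of Trem2, was 55.7, 54.1, 42.9 and 47.8 TPM in sham and 224, 389.8, 252.3, 253.6 and 297.4 TPM with PLX3397 (2.46 ± 0.13, adjusted p = 3.0e-13). Fcrls (2.19), Trem2 (2.10), a lipid-sensing receptor, Olfml3 (1.38) and Aif1 (1.37), which encodes the microglial protein IBA1, had adjusted p-values of 6.0e-09 or less, without overlap. Tyrobp, Trem2 and Aif1 are also made by other macrophages, so the list does not mark resting microglia alone. The summed level of the 16 genes was 460.3 to 474.1 TPM in sham, 1012 to 1583 TPM with PLX3397 and 2150 to 2940 TPM in vehicle, so the 3 groups did not overlap. Tested directly against vehicle, in which 3.23% of all genes were higher and 6.66% lower with PLX3397, all 16 were lower (median -1.36). In bulk tissue fewer cells of a type and less RNA per cell cannot be told apart, here and for every list below.

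**Figure D2:**
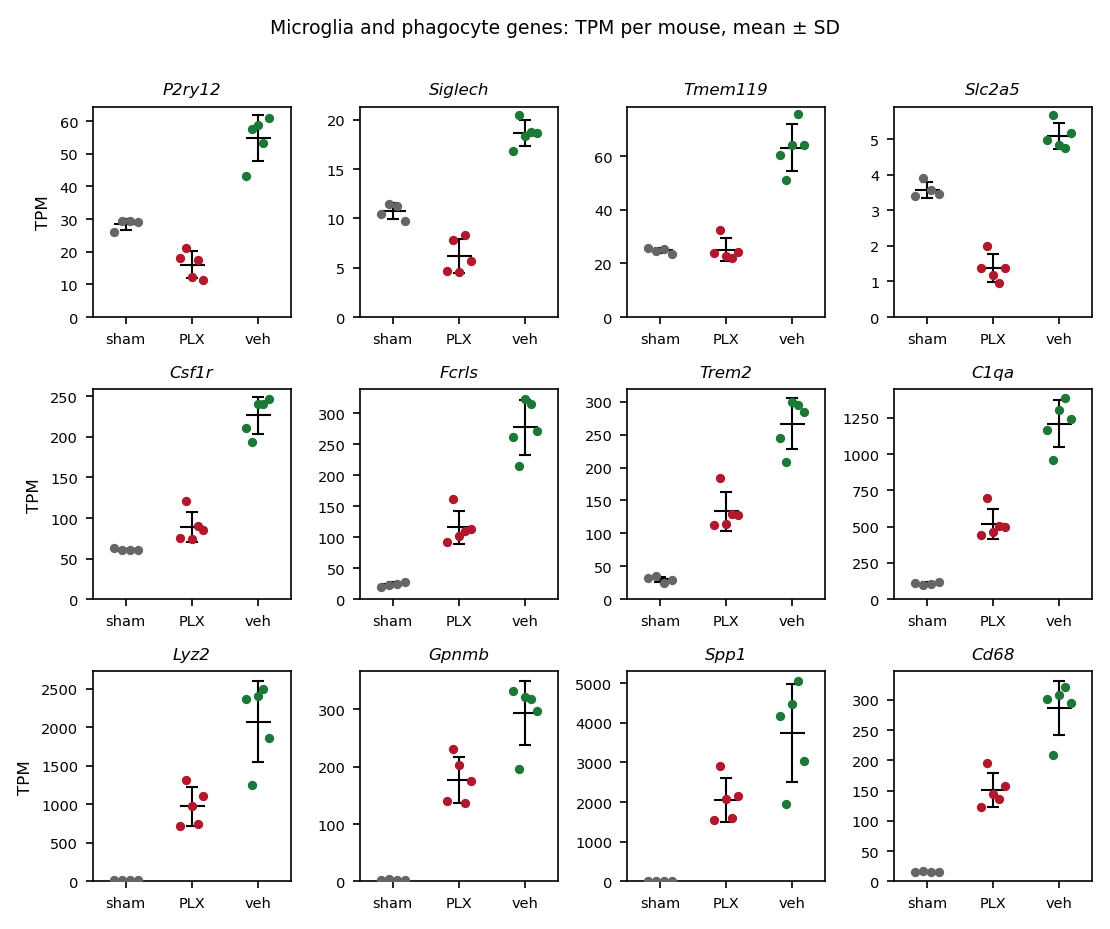
TPM of 12 microglia and phagocyte genes in each sham (4), PLX3397 (5, labelled PLX) and vehicle (5, labelled veh) mouse, with the mean and SD as bars; each panel has its own linear axis from 0. P2ry12, Siglech and Slc2a5 lie below sham with PLX3397, Tmem119 overlaps sham, and Csf1r, Fcrls, Trem2, C1qa, Lyz2, Gpnmb, Spp1 and Cd68 lie between sham and the vehicle mean.

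Genes of activated phagocytes were higher. Of 21 members, Cst7, Itgax and Msr1 had sham means below the filter, and 18 of the other 18 were higher than in sham, with a median log2 fold change of 1.82, against 2.55 in vehicle versus sham. Gpnmb, a lysosomal membrane glycoprotein, was 3.29, 3.93, 2.34 and 2.70 TPM in sham and 140.2, 230.0, 203.0, 136.1 and 174.6 TPM with PLX3397 (5.44 ± 0.20, adjusted p = 2.9e-16). Lgals3, the lectin galectin-3, (5.20) and Hmox1, which degrades heme, (4.80) rose similarly without overlap. Among the members below the filter in sham, Cst7, a cysteine protease inhibitor, had a log2 fold change of 4.33. The summed level of the 21 genes was 3988 to 4125 TPM in sham, 11590 to 17180 in PLX3397 and 16330 to 25830 in vehicle mice, so the injured groups overlapped. Against vehicle 16 of the 21 were lower, with 14 to 18 without single mice and 12 when just the compared groups entered the model. Hmox1 was among those that did not pass, at 266.8 TPM with PLX3397 and 330.4 ± 131 TPM (SD, n = 5) in vehicle (adjusted p = 0.54). Apoe, Fabp5 and Hmox1 are also made by other cells, such as astrocytes.

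Macrophages of the brain's borders and of the blood gave both directions. Of 13 members tested, Arg1, Ccr2, Ly6c2, Chil3 and Ms4a4c had sham means below the filter. Of the other 8, 4 were higher and 3 lower than in sham. The 3 lower ones were Mrc1, Cd163 and Lyve1. These genes are markers of border macrophages, but so are Pf4 and Ms4a7, which were higher. Mrc1, the mannose receptor CD206, was 1.87, 2.07, 3.01 and 2.55 TPM in sham and 0.649, 1.24, 0.898, 0.766 and 1.38 TPM with PLX3397 (-0.77 ± 0.15, adjusted p = 1.5e-04), without overlap, and 6.02 ± 1.20 TPM in vehicle. Cd163 (-0.72, adjusted p = 9.9e-06) and Lyve1 (-0.68, adjusted p = 2.6e-04) averaged at most 1.15 TPM in sham, a low level, and were chosen after their values were seen. In vehicle Cd163 was 1.45 ± 0.22 TPM and Lyve1 0.526 ± 0.307 TPM, and Lyve1 was lower than in sham there too (-0.37, adjusted p = 0.024). The 4 that rose included Lyz2, lysozyme of myeloid cells, at 16.8, 13.1, 16.6 and 21.8 TPM in sham and 721.6, 1316, 975.9, 746.1 and 1112 TPM with PLX3397 (5.74 ± 0.20, adjusted p = 9.2e-17). Pf4 (2.77), F13a1 (2.34) and Ms4a7 (2.18) rose as well. Among the members below the filter in sham, Arg1, an arginase of recruited macrophages, had a log2 fold change of 4.01. Ccr2, the chemokine receptor of monocytes, was 0.115 TPM in sham, 0.800 with PLX3397 and 2.23 ± 0.59 in vehicle. Against vehicle 9 of the 13 were lower.

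Few neutrophil and lymphocyte genes passed the level filter. Of 11 neutrophil genes 5 passed it, Mmp8 among them through the injured mice, and 3 of the other 4 were higher, with S100a8, a calcium-binding alarmin, at 0.362, 2.08, 0.319 and 1.12 TPM in sham and 7.45, 23.1, 13.5, 17.3 and 33.0 TPM with PLX3397 (3.27 ± 0.42, adjusted p = 7.3e-07). S100a9 (2.21, adjusted p = 5.6e-04) and Csf3r (1.16, adjusted p = 4.6e-08) rose too. Mmp8, a neutrophil collagenase, was listed at 0 in all sham mice and at 1.62 to 2.83 TPM with PLX3397. Of 18 lymphocyte genes 2 passed the filter, Cd4 (adjusted p = 0.26, and 0.046 without PLX3397 mouse J02) and Lck (adjusted p = 0.99). With all genes above 0 in the fit, 3 lymphocyte genes were higher than in sham, beside 3849 genes in all. The members that failed the filter averaged below 0.5 TPM, and the count was not read as a change in lymphocytes.

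The genes of red blood cells were lower. All 5 were lower than in sham, with a median log2 fold change of -1.69, whereas the median in vehicle versus sham was 0.15. Hbb-bs, an adult beta-globin gene (chr7:103826523-103827928, GRCm38.p6), was 775.2, 755.9, 1198 and 1164 TPM in sham and 202.6, 341.6, 258.5, 254.6 and 377.6 TPM with PLX3397. The highest treated mouse, at 377.6 TPM, was far below the lowest sham mouse, at 755.9 TPM (-1.76 ± 0.23, adjusted p = 7.8e-07).

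Hbb-bt (-1.73), Hba-a1 (-1.69) and Hba-a2 (-1.59) fell in the same way, as did Alas2 (-1.34, adjusted p = 1.8e-04), the first enzyme of heme synthesis in erythroid cells. The summed level was 2142 to 3195 TPM in sham, 606.3 to 1072 TPM with PLX3397 and 1507 to 4406 TPM in vehicle, so the treated mice lay below both other groups. Against vehicle all 5 were lower as well. Between PLX3397+Anakinra and Anakinra, mice outside the comparisons above, 4.67% of all genes were higher and 8.1% lower (12.8% in all), and again all 5 were lower (median -1.66), as were all 16 homeostatic microglial genes (median -1.39). The paired genes Hba-a1 and Hba-a2, and Hbb-bs and Hbb-bt, are close copies, and reads could be split between them, so their single values are uncertain.

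**Figure D3:**
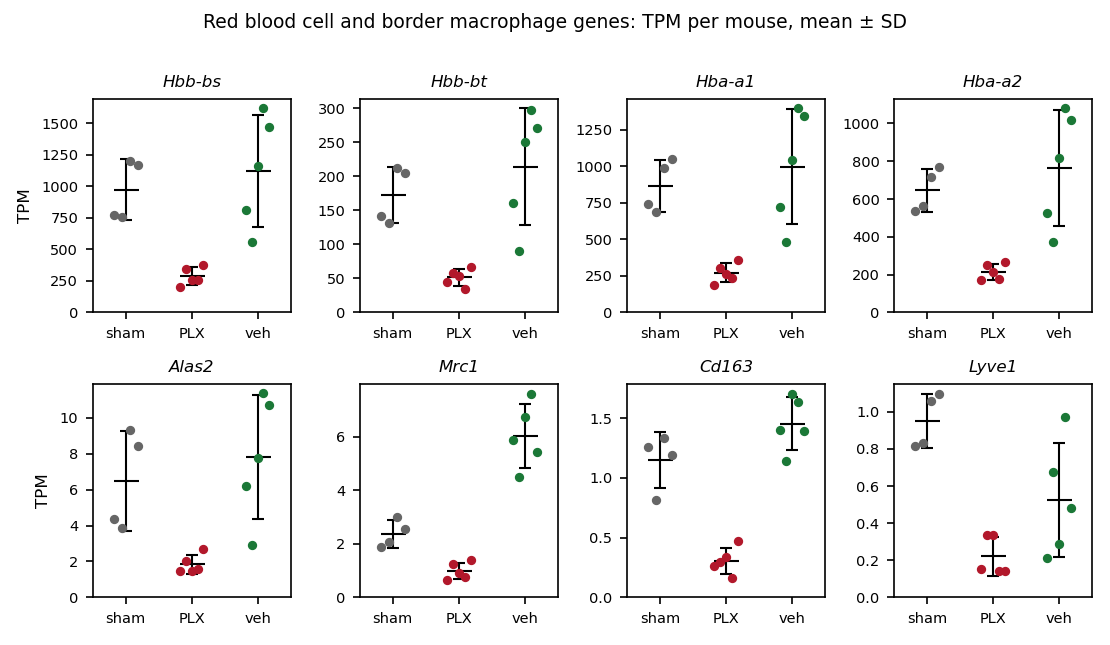
TPM of 5 red blood cell genes and 3 border macrophage genes in each sham (4), PLX3397 (5, labelled PLX) and vehicle (5, labelled veh) mouse, with the mean and SD as bars and a linear axis from 0 in each panel. In all 8 genes the 5 PLX3397 mice lie below the 4 sham mice; sham and vehicle overlap in the 5 red blood cell genes.

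Complement, which tags debris and synapses for removal, rose in 13 of 16 genes (median 1.44, the same as the 1.44 of vehicle versus sham to 2 decimals). C4b was 18.6, 14.5, 15.6 and 16.5 TPM in sham and 133.9, 164.3, 145.5, 149.4 and 167.7 TPM with PLX3397 (3.15 ± 0.09, adjusted p = 2.0e-18), and 169.2 ± 20.7 TPM in vehicle (difference from vehicle -0.15 ± 0.09, adjusted p = 0.32). C3ar1 (3.14), C1qa (2.24) and C1qc (2.19) rose too, as did C3, the central component, from 0.863 to 9.57 TPM. The microglial subunit gene C1qa had 520.1 TPM with PLX3397 and 1211 ± 162 TPM in vehicle (-1.23, adjusted p = 9.5e-09). Against vehicle 7 of the 16 were lower.

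Interferon-stimulated genes were higher in full. All 22 tested members passed the test, with a median of 2.05 against 2.20 in vehicle versus sham, and summed levels of 164.6 to 170.5 TPM in sham, 514.5 to 869.1 in PLX3397 and 657.8 to 906.9 in vehicle mice. Cxcl10, a chemokine induced by interferon, was 1.03, 0.370, 0.455 and 0.200 TPM in sham and 17.5, 31.1, 24.4, 36.8 and 34.6 TPM with PLX3397 (4.29 ± 0.17, adjusted p = 1.4e-15), with 28.1 ± 4.4 TPM in vehicle. Ifi27l2a (2.75), Ifit1 (2.56), Isg15 (2.54) and Bst2 (2.41), antiviral effectors, rose in all 5 mice. Against vehicle 4 of the 22 were lower, or 2 when just the compared groups entered the model, and Ifit1 differed from vehicle by 0.14 ± 0.15 (adjusted p = 0.67). These genes are switched on through a promoter element with paired GAAA blocks, and the promoters of 2 members show it. The windows run from 250 bases before to 50 bases after the RefSeq start on GRCm38.p6, and capitals mark matches on either strand to GAAA, then any 2 bases, then GAAA, which overlap in Isg15.
Ifit1, chr19:34640639-34640938, plus strand: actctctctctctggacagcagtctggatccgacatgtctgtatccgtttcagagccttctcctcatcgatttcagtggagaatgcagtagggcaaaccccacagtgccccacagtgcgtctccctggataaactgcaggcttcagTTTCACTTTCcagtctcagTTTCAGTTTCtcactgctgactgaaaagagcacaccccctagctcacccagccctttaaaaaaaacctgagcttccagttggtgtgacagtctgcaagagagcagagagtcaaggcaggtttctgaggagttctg
Isg15, chr4:156200769-156201068, minus strand: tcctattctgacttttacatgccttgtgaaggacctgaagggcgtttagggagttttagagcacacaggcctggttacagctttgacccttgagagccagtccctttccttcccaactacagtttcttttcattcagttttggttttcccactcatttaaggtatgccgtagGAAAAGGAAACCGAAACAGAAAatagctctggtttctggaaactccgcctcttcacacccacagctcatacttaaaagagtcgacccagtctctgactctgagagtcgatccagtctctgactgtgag
The core was found in 11 of the 17 interferon-stimulated genes with a window (64.7%) and in 478 of 12771 tested genes with one (3.74%). A match describes the letters in the window and not a site in use.

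Antigen presentation was higher in both classes, by unequal amounts. All 10 class I genes rose (median 1.29, vehicle versus sham 1.79), among them B2m, the shared light chain, from 235.0 ± 16.5 TPM in sham to 604.2 ± 92.5 TPM (1.35, adjusted p = 7.2e-11). Psmb8 (1.79), H2-K1 (1.55), Tap1 (1.47) and H2-D1 (1.34) rose with it. Of 7 class II genes, Ciita, which did not pass the test, had a sham mean below the filter, and 5 of the other 6 rose (median 0.92, vehicle versus sham 2.32). Cd74, the invariant chain, was 9.04, 7.38, 6.46 and 5.68 TPM in sham, 15.2, 17.1, 14.4, 12.5 and 15.1 TPM with PLX3397 (0.97 ± 0.20, adjusted p = 3.0e-04) and 44.9 ± 14.8 TPM in vehicle. Against vehicle 6 of the 10 and 6 of the 7 were lower. Without single mice these counts were 5 to 9 for class I and 5 to 7 for class II.

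Chemokines and cytokines were mostly higher. Of 16 chemokine genes 7 had sham means below the filter (6 of them higher), and 7 of the other 9 rose (median 1.82, vehicle versus sham 2.85). The largest log2 fold changes in the list were those of Ccl12 (3.53), Cxcl5 (3.28), Ccl2 (3.05), Ccl3 (2.72) and Ccl5 (2.59). Ccl2 and Ccl5 are among the 7 with a sham mean below the filter. Ccl2, which attracts monocytes, was 0, 0.505, 0.311 and 0.546 TPM in sham and 7.74, 10.8, 8.11, 13.2 and 10.8 TPM with PLX3397. The chemokine Cx3cl1, which neurons make, was lower and was named after its value was seen. Of 17 genes of the interleukin-1, inflammasome and cytokine list 8 had sham means below the filter (all 8 higher), and 7 of the other 9 rose (median 0.93, vehicle versus sham 1.25). The list was led by Casp4 (1.58), Il1rn (1.54), Pycard (1.51), Il1r1 (1.15) and Tgfb1 (1.10). Casp4 and Il1rn are among the 8 below the filter in sham, so their places describe the choice. Il1rn, the natural antagonist whose recombinant form is Anakinra, was listed at 0 in 3 sham mice and at 0.0504 TPM in J07, and at 1.27 to 2.39 TPM with PLX3397. Against vehicle 7 genes of each list were lower. The chemokine gene Cxcl12 was higher (0.35 ± 0.07, adjusted p = 8.9e-04) and was named after its value was seen. The count of lower chemokine genes was 3 with a pseudocount of 0.1, 4 with all genes above 0 in the fit, 3 without vehicle mouse J18B or J19B or PLX3397 mouse J12, and 4 without vehicle mouse J20B or PLX3397 mouse J01. With just the compared groups in the model the counts were 3 and 4.

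Reactive astrocyte genes rose strongly. Of 20 reactive astrocyte genes Ptx3 had a sham mean below the filter, and 18 of the other 19 were higher than in sham (median 1.87, vehicle versus sham 1.88). The summed levels were 297.1 to 337.3 TPM in sham, 2881 to 3846 with PLX3397 and 2856 to 4591 in vehicle. Gfap, the intermediate filament of astrocytes (chr11:102887336-102897200, GRCm38.p6), was 121.7, 111.5, 119.3 and 105.8 TPM in sham and 1576, 1882, 1855, 1836 and 1903 TPM with PLX3397. Every treated mouse was far above every sham mouse (3.97 ± 0.10, adjusted p = 5.2e-19). Serpina3n, a serine protease inhibitor, rose from 23.7 to 487.6 TPM (4.29) and Vim, another filament gene, from 67.1 to 806.8 TPM (3.56). Lcn2, an iron-binding protein, was 0.167, 0, 4.55 and 0.516 TPM in sham and 40.4 to 66.4 TPM with PLX3397. None of the 20 passed the test against vehicle, where 9.89% of all genes did, and the differences for Gfap and Serpina3n were -0.09 ± 0.10 (adjusted p = 0.66) and -0.12 ± 0.12 (adjusted p = 0.59). Timp1 belongs to this list and is also made by fibroblasts.

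Homeostatic astrocyte genes rose less, in 15 of 16 members (median 0.34, vehicle versus sham 0.42). The water channel gene Aqp4 was 46.8, 51.7, 55.0 and 52.4 TPM in sham and 185.5, 207.1, 180.4, 231.7 and 220.7 TPM with PLX3397 (1.97 ± 0.11, adjusted p = 3.6e-13). Gja1 (1.02), the gap junction protein connexin 43, Mlc1 (0.72), Aldh1l1 (0.67) and Kcnj10 (0.63) followed.

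**Figure D4:**
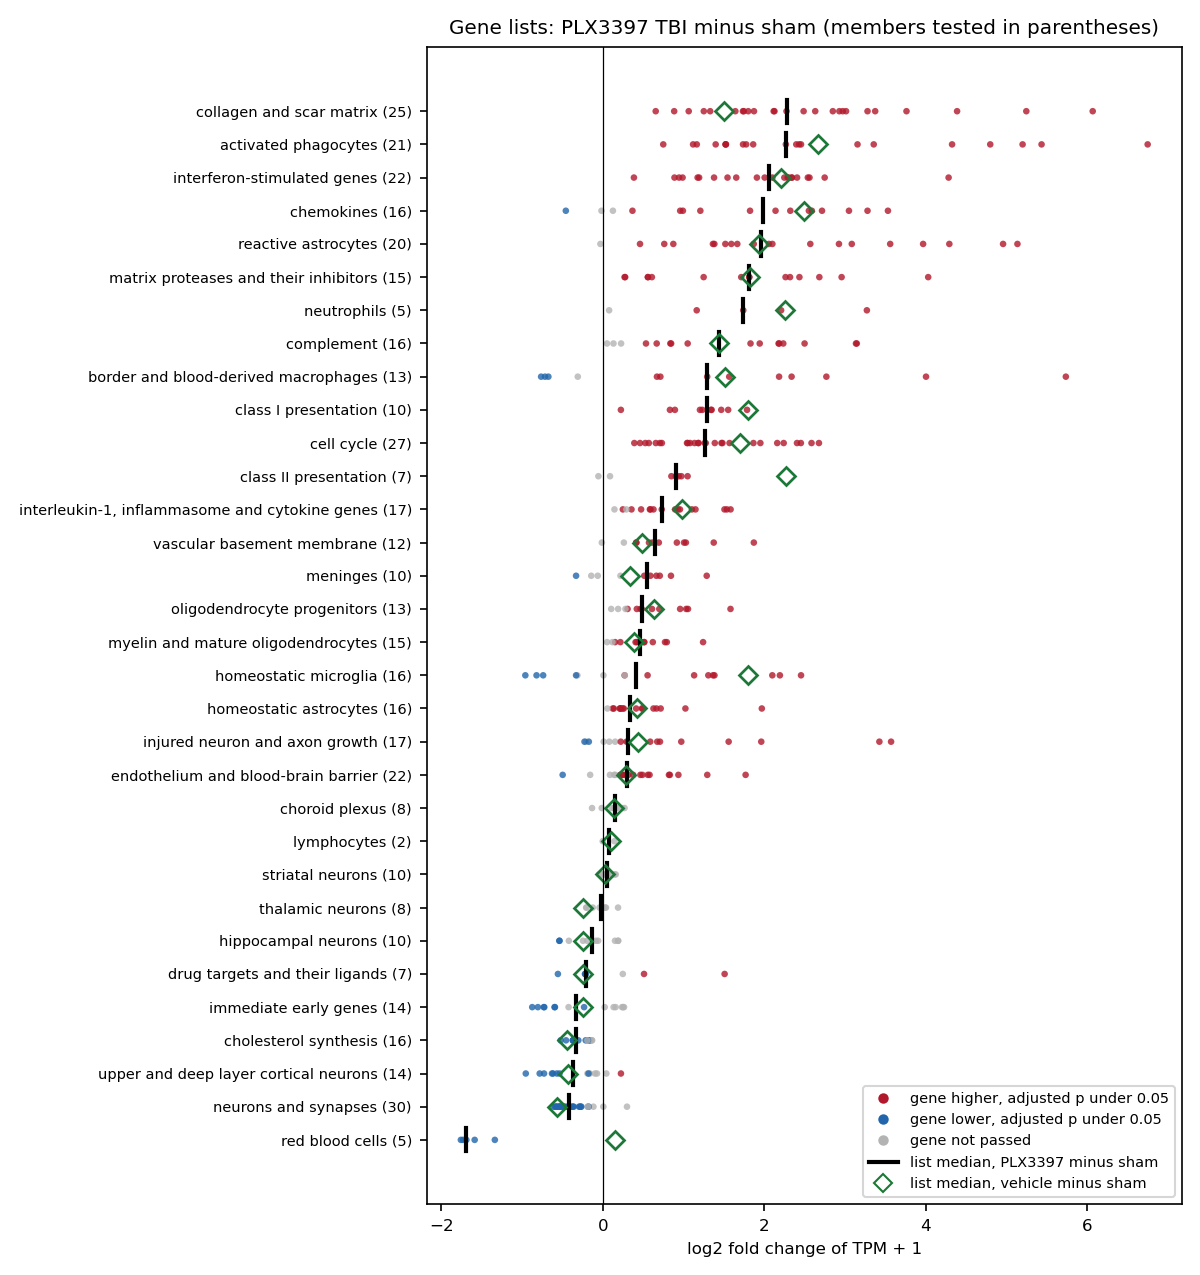
Log2 fold change of TPM + 1, PLX3397 TBI minus sham, for the members of the 32 gene lists (1 point per gene, red higher, blue lower, grey not passed at an adjusted p of 0.05), with the number of members tested in parentheses. Black bars are list medians over all members tested and green diamonds the medians of the same genes in vehicle minus sham; the bar and diamond lie far apart for red blood cells (-1.69 and 0.15), homeostatic microglia (0.41 and 1.79) and class II presentation (0.90 and 2.27).

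Collagens and other scar matrix genes were higher. Of 25 genes Lox, which cross-links collagen, had a sham mean below the filter, and all of the other 24 were higher than in sham (median 2.20, vehicle versus sham 1.498). Summed levels were 547.9 to 651.5 TPM in sham and 1601 to 2990 TPM with PLX3397. Col1a1, a chain of the main fibrillar collagen (chr11:94936224-94953042, GRCm38.p6), was 6.11, 4.05, 5.66 and 5.14 TPM in sham and 131.7, 347.9, 298.1, 170.7 and 301.8 TPM with PLX3397 (5.25 ± 0.55, adjusted p = 2.7e-08). Col3a1 (6.07), Col1a2 (4.39) and Thbs1 (3.38) rose without overlap. Lox had a log2 fold change of 3.76.

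In the vehicle mice these genes were uneven. Col1a1 was 168.8, 15.1, 206.2, 196.1 and 23.4 TPM in vehicle mice J01B, J17B, J18B, J19B and J20B, so mice J17B and J20B were far below the other three. Against vehicle 13 of the 25 genes were higher, Col3a1 (1.78 ± 0.56, adjusted p = 0.043), Col1a1 (1.61 ± 0.52, adjusted p = 0.047) and Postn (1.65 ± 0.35, adjusted p = 0.0027) among them. That count fell to 5 without vehicle mouse J17B, 4 without J20B, 5 without PLX3397 mice J02 or J12, 4 without PLX3397 mouse J20 and 3 when just the compared groups entered the model. Each of these settings also ended the calls of Col1a1 and Col3a1. H19 and Mfap4, which were also higher than in vehicle (2.40, adjusted p = 0.0020, and 1.52, adjusted p = 0.0048), were low in the same 2 vehicle mice, at 4.61 and 6.14 TPM for H19 against 29.96 to 60.4 TPM in the other three. With just the compared groups in the model their adjusted p was 0.050 for H19 and 0.057 for Mfap4.

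Proteases and their inhibitors were higher. Of 15 genes Mmp3, Mmp12 and Mmp13 had sham means below the filter, and 12 of the other 12 were higher (median 1.48, vehicle versus sham 1.52). Mmp13, a collagenase, was listed at 0, 0, 0 and 0.0823 TPM in sham and was 7.29, 21.5, 16.4, 10.8 and 32.8 TPM with PLX3397. Mmp3, stromelysin, was listed at 0 in all sham mice and at 2.80 to 9.26 TPM with PLX3397. The gelatinase gene Mmp2 (2.44) and Mmp14 (2.32), which encodes a membrane-bound protease, rose too. The AP-1 site, bound by FOS and JUN proteins, is TGANTCA, and it stands just upstream of the start of Mmp13, in capitals below.
Mmp13, chr9:7272264-7272563, plus strand: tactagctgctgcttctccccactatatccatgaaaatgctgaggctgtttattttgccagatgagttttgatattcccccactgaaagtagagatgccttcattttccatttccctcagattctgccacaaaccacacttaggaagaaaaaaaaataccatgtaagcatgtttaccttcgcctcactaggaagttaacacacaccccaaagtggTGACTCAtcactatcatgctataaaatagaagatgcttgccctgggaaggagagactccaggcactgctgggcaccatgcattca
This motif was present in 4 of 9 protease list genes with a window (44.4%), in 2 of 4 class II genes, in 5 of 15 activated phagocyte genes (33.3%), in 5 of 17 interferon-stimulated genes (29.4%), in 5 of 19 reactive astrocyte genes (26.3%) and in 837 of 12771 tested genes (6.55%), both strands searched.

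Vessels changed more modestly. Of 12 vascular basement membrane genes 10 were higher (median 0.65, vehicle versus sham 0.49), among them Nid1 (1.87), Col4a1 (1.37), Nid2 (1.03), Lama4 (1.01) and Hspg2 (0.92). Of 22 endothelial and blood-brain barrier genes Esm1 had a sham mean below the filter, and 15 of the other 21 were higher and 1 lower (median 0.28, vehicle versus sham 0.29). Icam1, an adhesion molecule for leukocytes, was 2.13, 2.03, 3.20 and 3.51 TPM in sham and 8.93, 11.8, 11.7, 11.5 and 13.96 TPM with PLX3397 (1.77 ± 0.14, adjusted p = 2.4e-10). Angpt2 (1.29), Vcam1 (0.94), Cdh5 (0.83) and Vwf (0.82) rose as well. The lower gene was Cd34 (-0.50, adjusted p = 5.6e-07), named after its value was seen.

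Cell cycle genes were higher. Of 27 genes Cdk1, Bub1 and Cenpf had sham means below the filter, and 24 of the other 24 were higher (median 1.27, vehicle versus sham 1.71). Cdk1, the kinase that drives entry into mitosis, is among those set apart. It was 0.348, 0.237, 0.525 and 0.462 TPM in sham and 4.22, 7.20, 7.43, 7.81 and 7.01 TPM with PLX3397 (log2 fold change 2.45). Ube2c (2.68), Ccnb1 (2.59), Top2a (2.41) and Ccnb2 (2.24) rose alike. Cdkn1a, which encodes an inhibitor of the cell cycle, is also counted, so the list does not mark dividing cells alone. It was 18.9 to 22.65 TPM in sham and 26.4 to 33.2 TPM with PLX3397. Against vehicle 8 of the 27 were lower. This count was 17 without vehicle mouse J17B, 4 without J18B or J19B, 5 without PLX3397 mouse J01 and 3 when just the compared groups entered the model. The extended CCAAT box CCAATC, bound by NF-Y, is shown in capitals on the reverse strand in Cdk1.
Cdk1, chr10:69352863-69353162, minus strand: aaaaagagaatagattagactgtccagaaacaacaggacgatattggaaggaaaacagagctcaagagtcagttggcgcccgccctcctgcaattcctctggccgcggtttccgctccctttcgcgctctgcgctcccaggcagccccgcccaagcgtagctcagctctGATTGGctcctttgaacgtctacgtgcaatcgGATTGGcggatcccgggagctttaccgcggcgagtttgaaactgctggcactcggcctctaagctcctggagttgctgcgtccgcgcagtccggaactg
It was found in 17 of 24 cell cycle genes with a window (70.8%), in 9 of 10 cholesterol synthesis genes (90.0%), which moved the other way, and in 2876 of 12771 tested genes (22.5%). The box was also found in 4 of 4 class II and 5 of 8 class I presentation genes (62.5%).

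Neuronal genes were lower by small amounts. Of 30 genes of neurons and synapses 24 were lower and none higher (median -0.42, vehicle versus sham -0.57). Rbfox3, the nuclear marker NeuN, was 120.9, 109.2, 103.7 and 107.0 TPM in sham and 84.5, 65.3, 82.4, 69.0 and 71.9 TPM with PLX3397 (-0.56 ± 0.07, adjusted p = 6.3e-07). Camk2a (-0.61), Nefm (-0.59), Snap25 (-0.58) and Stx1a (-0.58) were lower without overlap. Against vehicle 7 of the 30 were higher, for instance Stx1a (0.28 ± 0.05, adjusted p = 0.0013), and the count was 13 without vehicle mouse J17B, 3 without J18B or J20B, 4 without J19B or PLX3397 mouse J01 or J19, and 3 when just the compared groups entered the model.

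The decrease was seen in cortical genes. Of 14 genes of cortical layers 8 were lower and 1 higher, among them Lamp5 (-0.96), Tbr1 (-0.73), Cux2 (-0.63) and Rasgrf2 (-0.62). Tbr1, a transcription factor of deep layer neurons, was 79.2, 77.9, 72.7 and 71.6 TPM in sham and 51.8, 36.4, 47.0, 45.0 and 46.3 TPM with PLX3397, without overlap. None of 10 striatal and 8 thalamic genes passed the test. Ppp1r1b was 669.5 ± 64.7 TPM (SD, n = 4) in sham and 699.1 ± 104.7 TPM (SD, n = 5) with PLX3397 (adjusted p = 0.74), and Penk (adjusted p = 0.36), Prkcd (adjusted p = 0.13, and 0.015 with just the compared groups in the model) and Calb2 (adjusted p = 0.44) did not pass either. Of 10 hippocampal genes Dsp and Lct were lower (-0.54 each) and none was higher. The single higher cortical gene was Ctgf (0.22), named after its value was seen. Its call was lost without any 1 of 6 mice. Striatal transcripts were abundant in every sham, PLX3397 and vehicle library, although the labels name cortex. Thalamic transcripts were detected in each of these libraries, some at low levels, such as Gbx2 at 6.08 to 13.4 TPM. PLX3397 mouse J02 was below all sham mice in each of the 10 striatal genes, for instance at 512.9 TPM for Ppp1r1b, and it was also the highest treated mouse in Csf1r, Trem2 and C1qa. The part of the tissue cut per section in these results was not tested.

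Activity and injury genes of neurons were listed apart. Of 14 immediate early genes, which are induced by synaptic activity, 7 were lower and none higher (median -0.33, vehicle versus sham -0.25). The count of higher ones was 3 under median-ratio rescaling and without sham mouse J15, 2 without PLX3397 mouse J19, and 1 without PLX3397 mouse J12 or at a mean of at least 5 TPM. Egr1 was 218.1, 224.0, 213.4 and 206.2 TPM in sham and 145.1, 124.7, 128.2, 94.7 and 99.4 TPM with PLX3397 (-0.88 ± 0.14, adjusted p = 9.6e-06). Egr3 (-0.81), Nr4a1 (-0.73), Egr4 (-0.73) and Fosb (-0.60) were lower as well. Of 17 genes of injured neurons and axon growth Sprr1a had a sham mean below the filter, and 10 of the other 16 were higher and 2 lower (median 0.30, vehicle versus sham 0.39).

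Atf3, a transcription factor induced by axon injury, was 1.65, 0.755, 0.760 and 2.06 TPM in sham and 18.9, 26.3, 22.7, 23.0 and 25.2 TPM with PLX3397 (3.43 ± 0.18, adjusted p = 1.4e-13). Tubb6 (1.96), Gal (1.56) and Ecel1 (0.97) rose with it. Sprr1a (3.57) had 13.7 TPM with PLX3397 and 13.5 ± 2.2 TPM in vehicle, a difference of -0.03 ± 0.26 (adjusted p = 0.96).

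**Figure D5:**
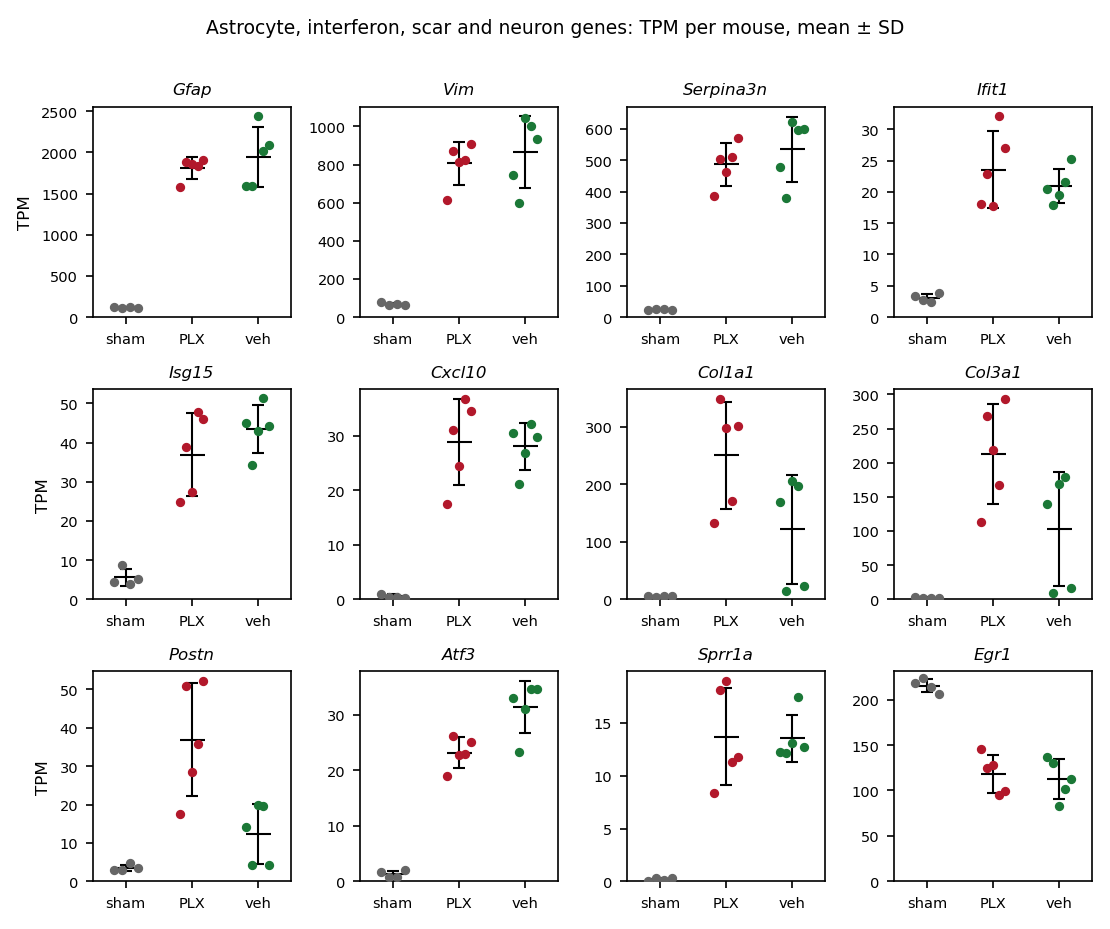
TPM of 12 astrocyte, interferon, scar matrix and neuronal genes in each sham (4), PLX3397 (5, labelled PLX) and vehicle (5, labelled veh) mouse, with the mean and SD as bars and a linear axis from 0 in each panel. Gfap, Vim, Serpina3n and Cxcl10 overlap between the injured groups far above sham, Egr1 lies below sham in both, and 2 of the 5 vehicle mice are low in Col1a1, Col3a1 and Postn.

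Oligodendrocyte genes rose. Of 15 myelin genes 13 were higher (median 0.46, vehicle versus sham 0.39), among them Trf (1.24), Cldn11 (0.79), Ugt8a (0.77) and Ermn (0.51). Cldn11, a tight junction protein of myelin, was 394.2, 350.9, 356.6 and 390.3 TPM in sham and 620.1, 676.4, 635.5, 642.1 and 657.1 TPM with PLX3397. Of 13 progenitor genes 10 were higher (median 0.48, vehicle versus sham 0.64). Enpp6, a marker of newly forming oligodendrocytes, was 6.15, 6.92, 6.42 and 4.90 TPM in sham and 19.5, 19.04, 20.1, 20.95 and 21.1 TPM with PLX3397 (1.58 ± 0.12, adjusted p = 1.1e-10), and Vcan (1.06), Bmp4 (1.03), Gpr17 (0.96) and Neu4 (0.70) rose too. Against vehicle 5 progenitor genes were lower, Gpr17 (adjusted p = 0.028) and Neu4 (adjusted p = 0.017) among them. The count was 3 without vehicle mouse J01B or J18B or PLX3397 mouse J01, and both calls were lost without J18B or J01.

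Cholesterol synthesis was lower, in 13 of 16 genes (median -0.33, vehicle versus sham -0.45). Srebf2, the transcription factor of the pathway, was 160.0, 144.0, 143.4 and 138.7 TPM in sham and 118.0, 99.4, 114.5, 98.7 and 102.6 TPM with PLX3397 (-0.46 ± 0.07, adjusted p = 7.8e-06), without overlap. Fdft1 (-0.37) and Idi1 (-0.37), enzymes of the pathway, were lower too. Against vehicle 7 of the 16 were higher, Fdft1 by 0.26 ± 0.04 (adjusted p = 1.9e-04), and 4 without vehicle mouse J18B or J19B or when just the compared groups entered the model.

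Meningeal and choroid plexus genes mark tissue that a section may carry along. Of 10 meningeal genes 6 were higher and 1 lower (median 0.55, vehicle versus sham 0.33), with Foxd1 (1.29), Crabp2 (0.84), Foxc1 (0.71), Igf2 (0.66) and Gjb2 (0.59) moving most. Igf2 was also higher than in vehicle (0.40 ± 0.12, adjusted p = 0.035), a call that was lost without any 1 of 7 mice. Their part in the collagen values was not tested. None of 8 choroid plexus genes passed the test, with Ttr at 3487 ± 506 TPM in sham and 3753 ± 507 TPM with PLX3397 (adjusted p = 0.60) and Clic6 at 25.9 and 25.1 TPM (adjusted p = 0.94).

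Genes below sham were few among the DEGs. Apart from the globin genes and Alas2, the 14 down-regulated DEGs were Igfn1, Rspo1, Wnt10a, Kirrel2, Amn, Gh and 3 predicted genes. Igfn1 was 13.7, 12.9, 11.4 and 13.1 TPM in sham and 6.40, 3.75, 5.91, 4.72 and 3.72 TPM with PLX3397 (-1.24 ± 0.13, adjusted p = 4.8e-08), and its log2 fold change in vehicle versus sham was -1.30. Rspo1, a secreted enhancer of WNT signaling, (-1.03, adjusted p = 2.0e-07) and Ntn5 (-1.07, adjusted p = 5.2e-08) differed from vehicle by -0.01 (adjusted p = 0.97) and 0.02 (adjusted p = 0.95). Gh, growth hormone, was 11.1 ± 10.8 TPM in sham and 0.726 ± 1.42 TPM with PLX3397 and its groups overlapped. Wnt10a, Kirrel2, Amn and Gh lie outside the rule for named genes. Crybb1, which microglia express, was 3.97, 3.93, 7.30 and 5.94 TPM in sham and 3.20, 2.07, 2.06, 1.79 and 1.80 TPM with PLX3397 (-0.96 ± 0.17, adjusted p = 5.1e-05), against a log2 fold change of 0.55 in vehicle versus sham and a difference from vehicle of -1.52 (adjusted p = 2.6e-07).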

How the data were processed

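Paired-end libraries of poly(A) RNA from 24 mice were read by the study, and with CLC Genomics Workbench the authors aligned trimmed reads to the mm10 genome and deposited TPM per gene, scaled by length and to 1000000 per library (GRCm38 per the labels). The other deposited tables with rounded values, annotation and the authors' own tests were not used. No counts were given, so depth and counting error are unknown and precision rests on the spread between mice (median SD of log2 values 0.102 in sham, 0.118 in PLX3397, 0.119 in vehicle).

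Groups follow the treatment label of each sample. Genes averaging 0.5 TPM or more (17267) were fitted as log2(TPM + 1) in limma 3.58.1 (R 4.3.3), all 24 libraries, one mean per group, variance trend, two-sided, Benjamini-Hochberg over all genes. Fold changes on this scale understate those of low genes. Library measures were compared by exact two-sided permutation. The fit was tested on simulated data. The alternatives were pseudocount 0.1, all genes above 0, a mean of at least 5 TPM, median-ratio rescaling, just the compared groups, DEGs by adjusted p or a difference above 1 TPM, a block for shared animal numbers and leaving out each mouse.

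Genes and lists were chosen with earlier results of these data known. Named were the drug targets, the 10 genes with the largest change each way (adjusted p below 0.05, no overlap, at least 4 TPM, no predicted genes), up to 5 passing members per list by size of change, up to 2 abundant members where most fail, and the 5 largest differences from vehicle each way among genes that passed both tests. List members that the text names without this rule were chosen after their values were seen, namely Tmem119, P2ry12, Siglech, Slc2a5, Selplg, Cd163, Lyve1, Ccr2, Cx3cl1, Cxcl12, Cd34, Ctgf and those set apart for a low sham mean. The 5 motifs were searched in RefSeq promoter windows (GRCm38.p6), which 12771 genes had; the motifs TTCNNNGAA and CGGAAGT are not discussed. Gene positions are RefSeq's. Some genes that the rule names are not reported here.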

Additional observations from a re-analysis of the deposited data

Results flagged for a closer look

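Among the 157 named genes, 1 mouse stood apart from its group by Dixon's test in 8 genes of the PLX3397 group (5.1%) and 6 of the sham group (3.82%), and chance alone flags about 1 in 20 groups. With PLX3397, mouse J02 was high in Trem2, at 184.7 TPM against 112.4 to 128.8 TPM, and in the complement gene C1qa, at 696.4 TPM against 442.3 to 502.3 TPM, and low in the striatal gene Ppp1r1b, at 512.9 TPM against 726.8 to 755.1 TPM. Mouse J01 was low in Gfap (1576 against 1836 to 1903 TPM), in the astrocyte gene Mlc1 (257.3 against 269.9 to 274.3 TPM) and in Cdk1 (4.22 against 7.01 to 7.81 TPM), and high in Crybb1 (3.20 against 1.79 to 2.07 TPM). Mouse J19 was low in the meningeal gene Crabp2, at 5.90 TPM against 9.58 to 10.8 TPM.

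In the sham group, mouse J15 was high in Lcn2 (4.55 TPM against 0 to 0.516 TPM) and in Nr4a1 (43.2 TPM against 27.1 to 29.2 TPM). Mouse J16 was high in C3ar1 (1.64 TPM against 1.20 to 1.25 TPM) and low in Lama4 (3.59 TPM against 4.47 to 4.58 TPM), and it was the 1 sham mouse in which Mmp13 was above 0 (0.0823 TPM). Mouse J07 was the 1 sham mouse with Il1rn above 0 (0.0504 TPM). None of these genes changed its call against sham when the mouse concerned was left out.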

How the results depend on the processing

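The counts of genes higher and lower than in sham moved by less than 1.5 times under every alternative run, and leaving out each mouse gave 3610 to 3929 higher and 3349 to 3933 lower genes (vehicle versus sham 4241 to 4603 and 4307 to 4926). DEGs rose from 618 to 1023 up and from 14 to 47 down with a difference above 1 TPM, as the looser limit implies, and were 586 to 668 up and 10 to 17 down without single mice. The comparison with vehicle was less stable. Its 557 higher genes became 179 when just the compared groups entered the model, the cause of which was not tested, and were 333 without vehicle mouse J18B and 814 without J17B, and its 1150 lower genes were 859 to 1420 without the same mice. With a replicate block for the 3 numbers found in both the vehicle and the PLX3397 group, 71 genes were higher and 632 lower, in a fit of just those 6 libraries. The labels do not say whether these numbers pair the samples. The correlations of deviations were 0.173, -0.134 and -0.0656, and low values cannot exclude a pairing. The block was therefore not read as a pairing, and it left 0 of the 13 collagen calls. Among the genes that the rule names, calls against sham changed for Kit and Kitl (lost), and for Cd4, Flt3l and Prkcd (gained), each under the settings named above. The call for Ctgf, outside the rule, was lost without PLX3397 mouse J01, J12 or J20 or sham mouse J07, J08 or J16, and with all genes above 0. Values not called in either setting changed sign in 7 of 2186 cases against sham (2 genes, at most 0.143) and in 86 of 2500 against vehicle (33 genes, at most 0.188). No called value changed its direction. Unknown depth limits the genes near 0 TPM.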

Other observations

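The mice given PLX3397+Anakinra and Anakinra took no part in the comparisons above, apart from the level filter and the common spread. They gave values for the same lists, an alternative chosen after seeing the data. With the combination 807 genes were higher (4.67%) and 1399 lower (8.1%) than with Anakinra alone, 12.8% in all, with a median log2 fold change of 0.03. Beside the microglial and red blood cell genes given above, all 21 activated phagocyte genes (median -0.91) and 12 of 13 border and blood-derived macrophage genes (median -1.76) were lower. P2ry12 differed by -1.69 and Hbb-bs by -1.83.

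Some lists differed here from the comparison of PLX3397 with vehicle, and the difference between both comparisons was not tested. All 22 interferon-stimulated genes were lower with the combination (median -0.98), for instance Ifit1 (-0.95) and Cxcl10 (-1.15), and so were 26 of 27 cell cycle genes (median -0.64). Of the 25 collagen and scar matrix genes none was higher and 1 lower (median -0.22), with Col1a1 at -0.27 (adjusted p = 0.79). Of 20 reactive astrocyte genes 1 was lower and none higher (median -0.16), and of 30 neuronal genes 15 were higher (median 0.20).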
